A study of Saccharomyces cerevisiae with 4 samples.

Results

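What the loss of Pho23 does to the transcripts of yeast growing in rich medium was described over all genes, with attention to those outside autophagy and mating. The comparison sets growing cells of a pho23 deletion beside growing wild-type cells, which are 2 of the 4 libraries of the series, with 1 library on each side. The deletion strain is JMY047, labelled pho23∆::HIS5 in SEY6210. Whether it came from more than 1 clone is not stated in the sources used here. Wild type is SEY6210 itself, a haploid of mating type MATα. Both strains carry the auxotrophic alleles leu2-3,112, ura3-52 and his3-∆200, together with trp1-∆901 and lys2-801, the sucrose allele suc2-∆9, and GAL. Growing cells were in mid-log phase in YPD, a rich medium with glucose. The other pair of libraries holds the same 2 strains after 2 h in SD-N, a medium without nitrogen, and its values are given beside those of the growing pair. Of the 6678 open reading frames (ORFs) in the table, 5439 had an RPKM (reads scaled by ORF length and by library size) of at least 10 in either growing library. These are called eligible below.

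Pho23 is a subunit of Rpd3L, the large form of the Rpd3 histone deacetylase complex, and carries a PHD finger that binds methylated histone H3. Rpd3L is brought to promoters by DNA-binding proteins, of which the best studied is Ume6. Ume6 binds the URS1 element and is known for holding meiotic genes, and also the inositol gene INO1, silent in cells growing on glucose. Msn2 and Msn4, the activators of the general stress response, bind another short element called STRE.

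Because these elements recur in the results, stretches around the URS1 core are shown first for some ORFs that were at least 2-fold higher in the growing deletion library. They were read from the RefSeq R64 genome, the same assembly as sacCer3, in a window running from 250 bases before to 50 bases after the ORF start. All read 5′ to 3′ on the strand of the gene, and capitals mark the core, which is GCCGCC or, on the opposite strand, GGCGGC. INO1 encodes inositol-3-phosphate synthase, and RNP1 an RNA-binding protein. SAE3, HOP2, SPO13 and REC114 act in meiosis, and VPS73 in sorting to the vacuole. ARO9 encodes an aromatic aminotransferase, and PRX1 a mitochondrial peroxiredoxin. The minus strand carries INO1, VPS73, RNP1, SAE3 and PRX1.
INO1, chrX:136059-136094: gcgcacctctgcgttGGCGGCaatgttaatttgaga
YOL131W, chrXV:72928-72963: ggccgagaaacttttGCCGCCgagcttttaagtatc
VPS73, chrVII:310269-310304: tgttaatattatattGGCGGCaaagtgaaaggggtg
RNP1, chrXII:47619-47654: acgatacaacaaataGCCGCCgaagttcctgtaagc
SAE3, chrVIII:262642-262677: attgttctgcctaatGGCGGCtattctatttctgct
ARO9, chrVIII:375462-375497: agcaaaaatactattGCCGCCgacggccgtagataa
PRX1, chrII:101339-101374: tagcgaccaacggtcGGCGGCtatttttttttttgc
REC114, chrXIII:536100-536135: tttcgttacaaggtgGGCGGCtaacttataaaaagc
HOP2, chrVII:435481-435516: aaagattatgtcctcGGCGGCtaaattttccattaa
SPO13, chrVIII:131937-131972: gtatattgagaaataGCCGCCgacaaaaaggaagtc

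PHO23 itself had an RPKM of 0.13 in growing deletion cells and 12.3 in growing wild type, and 0.0546 in starved deletion cells and 23.4 in starved wild type, which fits the labels. Markers of mating type were looked at as well. MF(ALPHA)1, which encodes the alpha pheromone, stood at 2001 in growing deletion cells and 5363 in growing wild type, while STE2, the receptor made by a cells, stood at 5.63 and 15.3 in the same order of libraries. Of 7 a-specific genes, 5 were under the RPKM filter in growing cells. They were not all low in starved wild type, where STE2 stood at 338 and the a-specific gene MFA2 at 1178, against 600 for the alpha-specific STE3. The mating type is therefore taken from the strain label. The estimated depth ran from 19600000 to 27500000 reads per library, and 16 to 27 ORFs per library were listed at 0. Folds are log2 of the ratio of (RPKM + 1), deletion over wild type, which understates the change of low ORFs. With 1 library per group there is no replicate and no test, so "higher" and "lower" below describe these libraries only. Intervals of a ratio (95%) were made with that estimated depth and hold counting error alone. RPKM shares out each library's reads, so a change in abundant transcripts shifts the values of the others. Each library was made from a population of cells, so fewer cells making a transcript and less of it per cell cannot be told apart.

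At 2-fold, 215 eligible ORFs were higher in the growing deletion library, which is 3.95% of those eligible, and 113 were lower, which is 2.08%, together 6.03%. When the libraries were scaled by their median ratio the split was 178 higher and 141 lower, so the excess of higher ORFs depends in part on scaling. A pseudocount of 5 left 140 higher and 79 lower. Most of the transcriptome was close between the strains: 83.0% of eligible ORFs lay within 1.5-fold, with a median log2 fold of 0.07. Among ORFs at 4-fold or more, 22 were higher and 31 lower, and 13 of the lower ones belong to the mating lists. Outside the mating and autophagy lists, 22 were higher and 18 lower at that fold, the deleted PHO23 among the lower. The 18 also hold YML047W-A (-3.29) and YKL177W (-2.41), which by systematic name lie beside the mating genes PRM6 (-4.03) and STE3 (-2.27). Lower ORFs outside the lists are thus not all apart from mating. YMR316C-A, which overlaps DIA1, and YLR232W, which overlaps BNA5, are not separate measurements. Genes of the autophagy and hydrolase lists, with the ATG genes on no list, made up 15 of the higher ORFs, and genes of the mating lists 25 of the lower ones. Without both kinds of list, 199 of 5345 were higher (3.72%) and 88 lower (1.65%). The 88 still hold the mating-type genes MATALPHA1 and HMLALPHA1 (both -1.46) and AFB1 (-1.15), an alpha-cell gene on none of the lists. Lower-expressed ORFs held more of the calls, in part through the filter. When eligible ORFs were divided by mean RPKM into 5 bins of equal size, the lowest bin held 83 higher and 51 lower ORFs and the top bin 10 and 9. That lowest bin starts at a mean of 2.62. An ORF with a mean under 10 is eligible only if 1 library is above the other, which raises the calls of the bin. The excess can therefore not be read as a trait of low expression. The filter acts in the same way on called list members below that are under 10 in 1 library.

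At the threshold, ATG13 (log2 fold 1.004) fell just inside the higher set and GLK1, a glucokinase gene (0.998), just outside it. On the lower side, the aquaporin gene AQY2 (-1.01) was just inside and FUS3 (-0.997), the kinase of the mating pathway, just outside. The RPKM filter kept MSH4 at 10.01 in wild type and dropped YER067C-A at 9.99 in the deletion. Of the 1239 ORFs under the filter, 35 were past 2-fold higher and 84 lower.

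**Figure D1:**
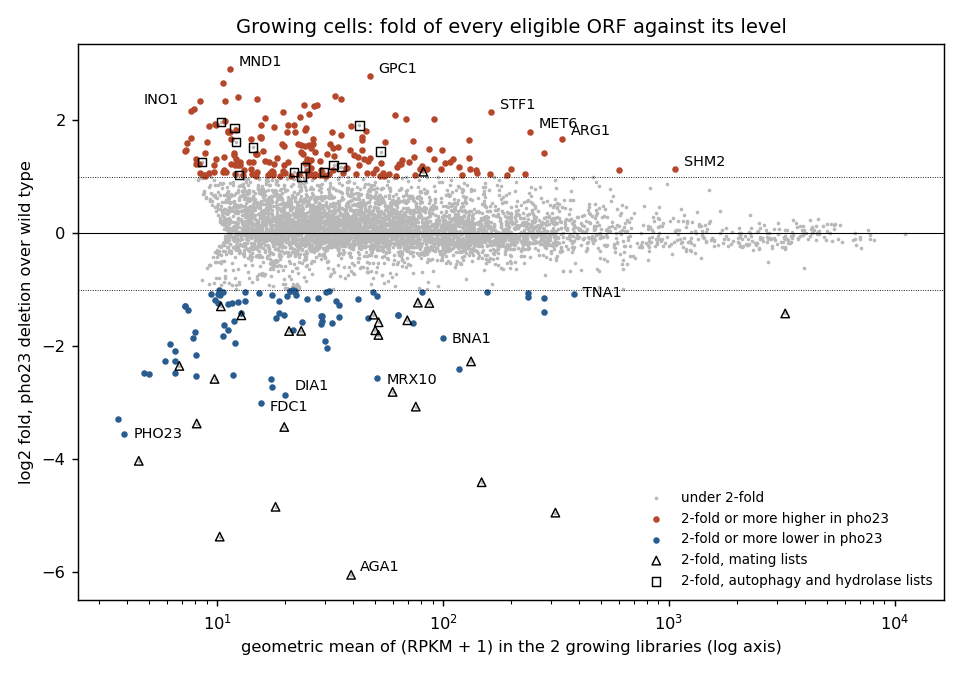
Each point is 1 of the 5439 eligible ORFs, with the geometric mean of (RPKM + 1) in both growing libraries on the log x axis and the log2 fold of the pho23 deletion over wild type on the y axis. Dotted lines mark 2-fold. The ORFs farthest below 0 are mating genes, such as AGA1, and the higher ORFs reach at most 2.90, for MND1.

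The highest fold of all belonged to MND1, which encodes a protein that works with Hop2 in the pairing of homologous chromosomes in meiosis. It had an RPKM of 30.1 in growing deletion cells and 3.17 in growing wild type, and of 125 in starved deletion cells and 27.4 in starved wild type. The growing values give a log2 fold of 2.90 and a ratio of 9.51, with a counting interval of 7.20 to 12.8. The starved deletion library was likewise above starved wild type.

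GPC1 encodes the acyltransferase that returns glycerophosphocholine to the membrane lipid phosphatidylcholine. It stood at 123 in growing deletion cells and 17.1 in growing wild type, and at 164 in starved deletion cells and 98.9 in starved wild type. Its log2 fold of 2.77 (ratio 7.18, interval 6.55 to 7.88) came with a starved log2 fold of 0.72, under 2-fold. STF1, which encodes a small protein that stabilises the complex of mitochondrial ATP synthase and its inhibitor, was the most abundant of the 20 ORFs with the highest folds. It reached 341 in growing deletion cells and 76.6 in growing wild type, against 532 in starved deletion cells and 512 in starved wild type. Its growing log2 fold was 2.14 and its starved log2 fold 0.06, so the starved libraries were nearly equal.

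Others among the 20 were SDH6, an assembly factor of succinate dehydrogenase (log2 fold 2.26), GLG2, a glycogenin that primes glycogen (2.11), and SHC1, an activator of chitin synthase in sporulation (125 RPKM in growing deletion cells and 28.5 in growing wild type). XKS1, encoding xylulokinase, was at 2.06 and RNY1, a vacuolar RNase, at 2.05. Little-studied ORFs filled several of the top places: YJL163C was at 2.65, FMP23 at 2.43, YOL131W at 2.41 and YBL086C at 2.25.

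**Figure D2:**
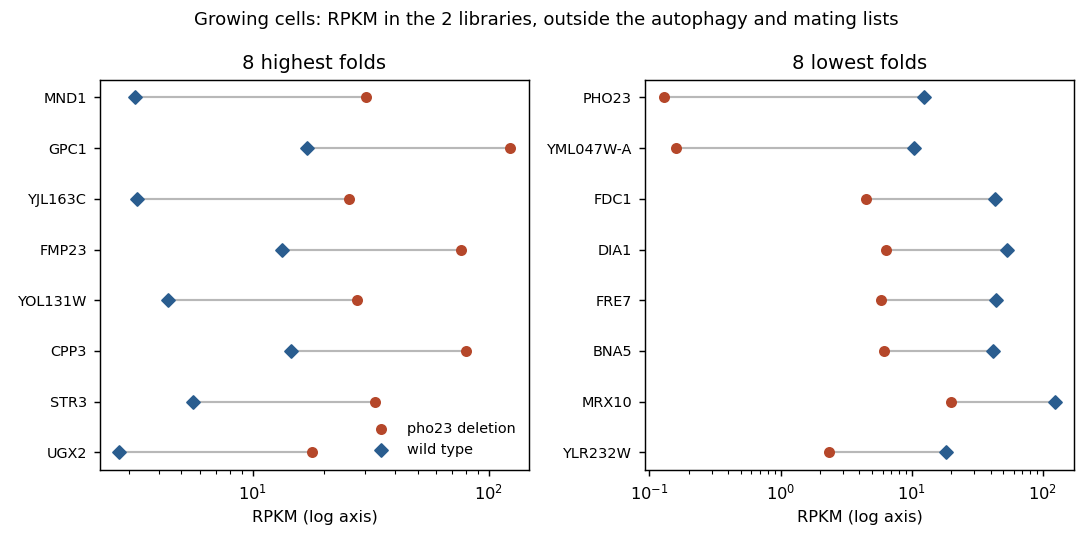
RPKM (log axis) of the 8 highest and 8 lowest ORFs by fold outside the autophagy and mating lists, in growing pho23 deletion cells (circles) and growing wild type (diamonds), joined by a line. The deletion library is to the right for each of the 8 highest and to the left for each of the 8 lowest. Among the lowest, YLR232W overlaps BNA5, so its value is not a separate measurement. YML047W-A lies by systematic name beside the mating gene PRM6, so its value may not be apart from mating.

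Genes of meiosis split by stage. Early genes are those that Ume6 is known to repress in mitotic cells, and middle and late genes are switched on afterwards by Ndt80. Of 34 early meiotic genes measured, 20 were eligible, of which 8 were higher at 2-fold and 1 lower. Beside these counts stand 3.95% higher and 2.08% lower over all eligible ORFs. MND1, SAE3, GMC2, REC114, HED1, HOP2 and SPO16 were under 10 in growing wild type and passed the filter through the deletion library alone. The lower one, MSH5, passed through wild type alone. The filter thus raises the share of called members among those eligible. Of all 34, 27 lay above 0, where 3742 of all 6678 ORFs did. The median log2 fold over all 34 was 0.56, against 0.05 over all ORFs of the table. All 33 middle and late sporulation genes were measured but only 6 were eligible, none higher and 2 lower, with a median over all 33 of -0.44. SSP1 and NDT80, the lower ones, passed the filter through wild type alone.

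SAE3, which helps load the meiotic recombinase, stood at 39.2 in growing deletion cells and 9.62 in growing wild type, and at 54.2 in starved deletion cells and 10.3 in starved wild type. GMC2, a protein of synapsis, stood at 40.1 in growing deletion cells and 8.35 in growing wild type (log2 fold 2.14). Further early genes at 2-fold were REC114 (1.40) and HED1 (1.27) of recombination, HOP2 (1.31) of pairing, SPO16 (1.02) of synapsis and SPO13 (1.01), which keeps sister chromatids together. The kinase gene IME2, which starts the meiotic programme, remained low at 4.29 in growing deletion cells and 3.47 in growing wild type.

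MSH5, which promotes crossovers, was the only eligible early gene that was lower at 2-fold. It had an RPKM of 1.97 in growing deletion cells and 13.3 in growing wild type, and of 3.57 in starved deletion cells and 39.6 in starved wild type, so both deletion libraries were low. The lower middle genes were SSP1, which acts in forming the spore membrane, at 1.01 in growing deletion cells and 10.2 in growing wild type (-2.47), and NDT80 itself at 5.58 and 14.4 (-1.23). Levels of this class are low, and most members under the filter had folds below 0.

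Of 23 genes of inositol and phospholipid synthesis, 22 were eligible and 2 were higher, INO1 and OPI3, beside 3.95% of all eligible ORFs. INO1 stood at 15.9 in growing deletion cells and 2.70 in growing wild type, so it passed the filter through the deletion library alone. It stood at 52.3 in starved deletion cells and 10.02 in starved wild type, and both deletion libraries exceeded their wild type by over 4-fold. OPI3, which encodes the methyltransferase that completes phosphatidylcholine, stood at 231 in growing deletion cells and 72.9 in growing wild type (log2 fold 1.65). The methylating enzyme gene before it, CHO2, was at 0.75, and the regulators INO2 and OPI1 were both at 0.42. Among 12 genes of phospholipid turnover, 8 were eligible and 2 higher, GPC1 and PGC1. PGC1, a phospholipase for phosphatidylglycerol, stood at 137 in growing deletion cells and 33.0 in growing wild type (2.02), and at 270 in starved deletion cells and 239 in starved wild type. The list medians were 0.22 for synthesis and -0.02 for turnover, against 0.05 over all ORFs.

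Amino acid genes were higher in selected branches. Among 34 sulfate, methionine and cysteine genes, 31 were eligible, and 4 were higher and none lower. Over all eligible ORFs 3.95% were higher and 2.08% lower. MET6, methionine synthase, stood at 450 in growing deletion cells and 129 in growing wild type, a ratio of 3.49. STR3, cystathionine beta-lyase, stood at 33.1 and 5.60 in the same libraries (2.37) and passed the filter through the deletion library alone. MUP3, a methionine permease (1.57), and MET13, which makes the methyl donor of Met6 (1.02), followed. Sulfate assimilation itself showed no such difference: MET3 was at 0.25, MET14 at -0.50 and MET16 at 0.04, and CYS3, cystathionine gamma-lyase, was at -0.94.

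In arginine synthesis, 12 of 12 measured genes were eligible and 3 were higher, beside 3.95% of all eligible ORFs. ARG1, argininosuccinate synthase, stood at 599 in growing deletion cells and 187 in growing wild type (log2 fold 1.67), but at 4009 in starved deletion cells and 5885 in starved wild type (-0.55). ARG82, an inositol polyphosphate kinase that also regulates arginine genes, was at 1.54 in growing cells and ARG3, ornithine carbamoyltransferase, at 1.05. Of 31 histidine, aromatic and other targets of the activator Gcn4, none was at 2-fold, and their median was 0.22.

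The Ehrlich pathway, which breaks down aromatic and branched amino acids to fusel alcohols, was listed together with FDC1 and PAD1, which act on phenylacrylic acids. ARO9 and ARO10 were higher, and the lower members of the list were FDC1 and PAD1, which passed the filter through wild type alone. ARO10, a decarboxylase, stood at 76.6 in growing deletion cells and 23.8 in growing wild type, and at 25.4 in starved deletion cells and 7.69 in starved wild type. ARO9 stood at 72.0 in growing deletion cells and 25.4 in growing wild type, with a log2 fold of 1.47 growing and 1.95 starved. In both conditions the deletion library held over 2-fold more of each transcript. AGP1, an amino acid permease, was alike, at 206 in growing deletion cells and 81.3 in growing wild type, and 72.8 in starved deletion cells and 15.5 in starved wild type. Of 21 permease and sensor genes, 18 were eligible, with 2 higher and 1 lower, beside 3.95% and 2.08% of all eligible ORFs. The lower member was PTR2, the di- and tripeptide transporter, at 27.1 in growing deletion cells and 62.3 in growing wild type (-1.17).

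SHM2, cytosolic serine hydroxymethyltransferase, had the highest level of the higher ORFs, at 1577 in growing deletion cells and 721 in growing wild type (log2 fold 1.13). It was the only 1 of 25 purine and one-carbon genes at 2-fold. ADE17 (0.86) and MTD1 (0.78) of the same list came next, and the list median was 0.27.

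Stress and reserve genes were higher in part. Of 34 genes of the environmental stress response, 22 were eligible, with 5 higher, 1 lower and a median of 0.34. Over all eligible ORFs the shares were 3.95% higher and 2.08% lower. YGP1, a secreted glycoprotein of nutrient limitation, stood at 182 in growing deletion cells and 44.1 in growing wild type (2.02). MSC1 was at 1.78, GAD1, glutamate decarboxylase, at 1.67 and TFS1, an inhibitor of carboxypeptidase Y, at 1.58. GAD1 passed the filter through the deletion library alone. SPI1, a cell wall protein, was lower at 21.4 in deletion cells and 53.1 in wild type (-1.27). Several classical stress genes were not higher: HSP12 was at -0.86, DDR2 at -0.37, HSP26 at -0.27 and CTT1, cytosolic catalase, at -0.06. Of these, DDR2, HSP26 and CTT1 lay under the RPKM filter.

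Of 28 oxidative stress enzymes, 26 were eligible, 5 of them higher and 1 lower, beside 3.95% and 2.08% of all eligible ORFs. The higher ones were PRX1 (log2 fold 1.63), the glutathione transferase GTT1 (1.196), mitochondrial superoxide dismutase SOD2 (1.13), the thiol peroxidase AHP1 (1.11) and HYR1, a peroxidase (1.05). PRX1 stood at 128 in growing deletion cells and 40.8 in growing wild type. The glutathione peroxidase gene GPX1 was lower, at 5.47 in deletion cells and 13.7 in wild type, and passed the filter through wild type alone. Among 31 heat shock and chaperone genes, 26 were eligible, with 3 higher, 1 lower and a median of -0.16. HSP42 (1.79), HSP78 (1.31) and HSP104 (1.11) encode a small heat shock protein and 2 disaggregases. HSP42 and HSP78 passed the filter through the deletion library alone. The protein-folding genes SSA2, SSC1, HSC82 and HSP60 lay between -0.51 and -0.42.

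Of 20 genes of the TCA cycle none was at 2-fold, 16 lay above 0 and their median was 0.37, where 58.3% of all eligible ORFs lay above 0. The largest was SDH2, a succinate dehydrogenase subunit, at 171 in growing deletion cells and 93.8 in growing wild type (0.86). Of 36 respiratory chain and ATP synthase genes, 35 were eligible and 1 was higher, with a median of 0.03 that turned to -0.04 when scaled by median of ratios. The trehalose and glycogen list had a median of 0.42, with GLG2 higher among 11 eligible of 20. TPS2 and GLG1 of the same list were at 0.83 and 0.89.

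Subunits of the GID ubiquitin ligase, which marks gluconeogenic enzymes for breakdown, were picked out after their values were seen. UBC8, its ubiquitin-conjugating enzyme, stood at 77.6 in growing deletion cells and 23.3 in growing wild type (1.69). GID11 was at 1.47, RMD5 at 1.40 and VID30 at 1.22. The other members looked up were GID8 (0.95), FYV10 (0.85), GID7 (0.54), VID24 (0.14) and VID28 (0.99, under the RPKM filter).

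The iron regulon was near all ORFs, with a median of 0.12 over 28 genes. Among 19 eligible members 2 were higher, beside 3.95% of all eligible ORFs. Those were FIT3 (1.91) and FIT2 (1.33), neighbouring genes for cell wall mannoproteins that retain siderophore iron. FIT3 stood at 41.2 in growing deletion cells and 10.2 in growing wild type, and at 31.6 in starved deletion cells and 32.7 in starved wild type.

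**Figure D3:**
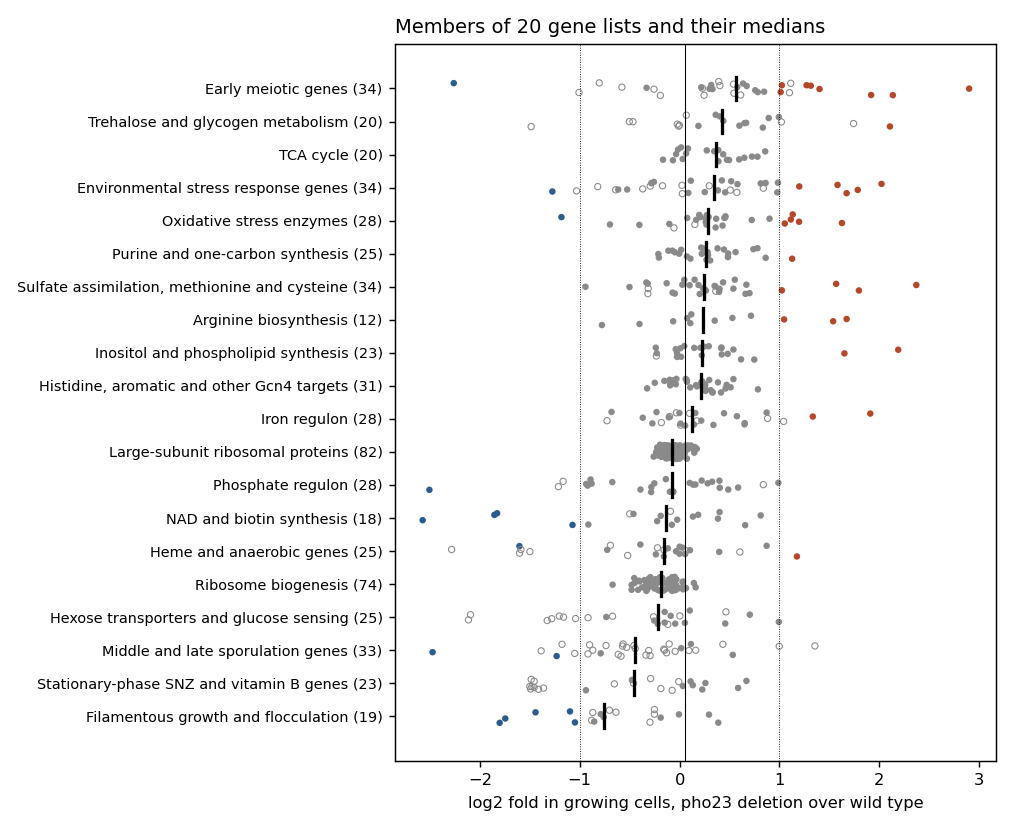
Each point is a member of 1 of 20 gene lists, at its log2 fold in growing cells, pho23 deletion over wild type. Filled points are eligible, open points lie under the RPKM filter, red and blue are 2-fold higher and lower in the deletion, and the bar is the median of all measured members. The number of members measured stands in brackets, and the solid vertical line is the median of all ORFs in the table (0.05).

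Genes for the synthesis and uptake of NAD, the redox cofactor, included several of the lower ORFs outside mating. Of 18 genes of NAD and biotin synthesis, 16 were eligible, and 4 were lower and none higher. Over all eligible ORFs 2.08% were lower and 3.95% higher. BNA5 and NRT1 passed the RPKM filter through wild type alone, which raises the lower share. BNA3, a kynurenine aminotransferase that was not on the list and was added after its value was seen, was higher, at 69.2 in growing deletion cells and 27.4 in growing wild type (log2 fold 1.30). BNA5, kynureninase, stood at 6.12 in growing deletion cells and 41.4 in growing wild type, and at 7.38 in starved deletion cells and 46.6 in starved wild type. BNA1, which acts after it in the kynurenine pathway, stood at 51.5 in growing deletion cells and 189 in growing wild type, and at 356 in starved deletion cells and 912 in starved wild type. In each condition the deletion library was well under wild type.

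The other lower NAD genes encode transporters. NRT1, for nicotinamide riboside, had a log2 fold of -1.83. TNA1, for nicotinic acid, stood at 262 in growing deletion cells and 551 in growing wild type (-1.07). BNA2, the first enzyme of the kynurenine pathway, was close to 2-fold at -0.91, while BNA4, BNA6 and BNA7 lay between -0.22 and 0.19. PNC1, the nicotinamidase of the salvage route, was at 0.81. YLR232W overlaps BNA5 and had nearly the same fold, at -2.53, so it is not a separate measurement.

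FDC1 and PAD1 encode the pair of enzymes that decarboxylate phenylacrylic acids. FDC1 stood at 4.47 in growing deletion cells and 43.2 in growing wild type, and at 10.6 in starved deletion cells and 80.1 in starved wild type. Its log2 fold of -3.01 in growing cells (ratio 0.103, interval 0.0884 to 0.121) was the lowest of an annotated ORF outside the mating lists after PHO23. PAD1, next to it, was at -1.21. MRX10, for a mitochondrial protein, stood at 20.04 in growing deletion cells and 124 in growing wild type, and at 101 in starved deletion cells and 1064 in starved wild type. These genes were therefore lower with and without nitrogen.

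DIA1, named for invasive growth, did not follow that pattern. It stood at 6.41 in growing deletion cells and 53.0 in growing wild type, a log2 fold of -2.86, but at 89.7 in starved deletion cells and 84.0 in starved wild type. MNC1 was alike, at 14.1 in growing deletion cells and 60.9 in growing wild type (-2.04), and 287 in starved deletion cells and 278 in starved wild type. FRE7, a metalloreductase, stood at 5.79 in growing deletion cells and 44.1 in growing wild type (-2.73) and its starved log2 fold was -1.15.

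The filamentous growth and flocculation list had the lowest median outside the mating lists, -0.76 over 19 genes. Of its 12 eligible members 5 were lower and none higher, beside 2.08% and 3.95% of all eligible ORFs. TEC1, the factor that directs Ste12 to filamentation genes, stood at 26.7 in growing deletion cells and 95.6 in growing wild type (-1.80). STE12 itself was at 28.8 and 80.0 in the same libraries (-1.44), and PGU1, a pectin-degrading enzyme that Ste12 and Tec1 activate, was at -1.75. The regulators PHD1 (-1.10) and NRG2 (-1.05) were the others. Of the 5, PGU1 passed the filter through wild type alone. STE12 and TEC1 also belong to the pheromone pathway, so these values are not independent of the lower mating genes. FLO11, the main adhesin, was low in both libraries, at 0.603 in deletion cells and 1.95 in wild type.

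PHO89, a sodium-phosphate cotransporter, was the 1 member of the phosphate regulon at 2-fold, at 3.91 in growing deletion cells and 26.9 in growing wild type (-2.51). The list as a whole had a median of -0.08. Its members included PHO84 at -0.89 and PHO11 and PHO12 at -0.92 and -0.94, which are near-identical and were counted from reads that could be shared. PHO5, the classical acid phosphatase, was at 0.40 and PHO8, the vacuolar phosphatase, at 0.99. HXK1, for the hexokinase that glucose represses, was lower at 33.7 in deletion cells and 73.7 in wild type (-1.11), in a glycolysis list with a median of -0.10. HUG1, a target of the DNA damage checkpoint, stood at 9.78 in deletion cells and 29.5 in wild type (-1.50), whereas DUN1, the checkpoint kinase, stood at 64.2 and 24.1 (1.38).

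Silent or barely expressed families also had lower values in the deletion library, mostly under the RPKM filter. In the list of 25 hexose transporter and glucose-sensing genes, 13 were under the filter and 7 of these were past 2-fold in either direction. Of all 1239 ORFs under the filter, 35 were past 2-fold higher and 84 lower, so low ORFs leaned the same way in general. HXT15 and HXT16, which are near-identical, were both at 0.109 in growing deletion cells, against 3.80 and 3.73 in growing wild type. The transporters used on glucose were close between strains, with HXT1 at 0.05, HXT3 at -0.09 and HXT2 at -0.25. Of 23 SNZ, SNO and thiamine genes, 14 were under the filter, and the near-identical copies SNZ2 and SNZ3 were at -1.49 and -1.50. TIR1, TIR2 and DAN4, cell wall genes of anaerobic cells, were at -2.28, -1.50 and -1.60, under the filter too, and TIR3 above it stood at 15.5 in deletion cells and 49.3 in wild type (-1.60).

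Ty retrotransposons were lower by less than 2-fold as a group. This set was taken after the called ORFs had been seen. Summed RPKM over 61 Ty1 ORFs was 858 in growing deletion cells and 1489 in growing wild type, and over 20 Ty2 ORFs 181 and 298 in the same libraries. The Ty1 median was -0.54, and 8 Ty1 ORFs passed 2-fold at -1.09 to -1.01. Those 8 have near-identical sequence, so they are close to a single measurement, and 105 of the 113 lower ORFs lie outside Ty elements.

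The machinery of growth differed little. None of 56 small-subunit and 82 large-subunit ribosomal protein genes was at 2-fold, with medians of -0.05 and -0.07. Of 74 ribosome biogenesis genes none was at 2-fold either, and 8 lay above 0, with a median of -0.18. Translation factors had the same median of -0.18 over 35 genes, and the proteasome was at 0.13 over 33. Among 14 genes of the Rpd3 complexes, the deleted PHO23 was the only 1 at 2-fold. The next were UME6 and RXT3 (0.75). UME6 stood at 29.6 in growing deletion cells and 16.2 in growing wild type (0.83), and its starved log2 fold was 1.25. Of 14 genes of daughter cells, all eligible and none at 2-fold, 13 were above 0 with a median of 0.44, against 58.3% of all eligible ORFs above 0.

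For 9 short motifs, the share of promoters with a match was compared over the window described above, on both strands. The URS1 core was present in 30 of 210 annotated higher ORFs (14.3%), in 0 of 101 lower ones and in 233 of 5057 eligible ones (4.61%). Over all 5977 promoters read it was in 5.15%. With AGCCGCC, a longer form that contains the same core, the shares were 7.14%, 0 and 2.00%. Read from the motif's side, 12.9% of the ORFs with a URS1 core were higher and none lower, against 3.73% higher among those without. Their median was 0.19, so most ORFs with the core differed little. MND1 and GPC1 have no such core in this window.

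STRE, searched as AGGGG, was in 103 higher ORFs (49.0%), 14 lower ones (13.9%) and 1072 eligible ones (21.2%), and in 21.7% of all promoters read. In each of the 5 expression bins a larger share of the ORFs with a match was higher: 14.8% against 6.22% in the lowest bin, and 2.39% against 0.611% in the top bin. The pheromone response element, TGAAAC, ran the other way, with 15.7% of higher, 37.6% of lower and 20.3% of eligible ORFs, and 27.6% of lower ORFs after the mating and autophagy lists were left out. That share counts Ty1 ORFs of near-identical sequence, and without ORFs in Ty elements it was 14 of 68 (20.6%). TGACTC, bound by Gcn4, was in 12.4% of higher, 1.98% of lower and 7.95% of eligible ORFs. The UASINO core, CATGTG, was in 6.67% of higher, 3.96% of lower and 6.43% of eligible ORFs, and TGTGGC, bound by Met31 and Met32, in 7.62%, 6.93% and 7.38%. CACGTG, bound by Pho4 and Cbf1, was in 2.86%, 0.99% and 3.07% in the same order, and the GATA site GATAAG in 19.5%, 9.90% and 14.5%. A match to so short a word is a description of the sequence, not evidence of binding.

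Both kinds of element occur close together in the promoter of HSP42, whereas the INO1 window holds the URS1 core and no STRE. The windows are printed 5′ to 3′ on the gene's strand, with URS1 cores and STRE matches in capitals. HSP42 stood at 19.7 in growing deletion cells and 4.99 in growing wild type, and at 157 in starved deletion cells and 109 in starved wild type.
HSP42, chrIV:806371-806670, plus strand: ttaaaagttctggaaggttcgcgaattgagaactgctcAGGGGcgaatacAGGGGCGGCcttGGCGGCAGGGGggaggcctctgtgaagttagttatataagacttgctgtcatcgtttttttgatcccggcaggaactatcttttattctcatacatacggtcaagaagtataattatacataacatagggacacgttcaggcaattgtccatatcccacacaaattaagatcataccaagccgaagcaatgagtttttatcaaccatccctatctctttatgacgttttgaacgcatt
INO1, chrX:135884-136183, minus strand: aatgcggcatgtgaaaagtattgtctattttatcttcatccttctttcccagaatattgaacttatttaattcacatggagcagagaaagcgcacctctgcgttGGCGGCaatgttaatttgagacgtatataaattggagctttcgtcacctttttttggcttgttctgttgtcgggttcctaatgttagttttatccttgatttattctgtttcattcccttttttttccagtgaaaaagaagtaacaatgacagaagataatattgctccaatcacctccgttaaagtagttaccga

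The starved pair of libraries, which shares no library with the growing pair, was set beside it for the same ORFs. There, 5.3% of eligible ORFs were higher in the deletion and 4.13% lower, together 9.44%. Of 5381 ORFs eligible in both conditions, 29 were higher in both, which is 13.6% of those higher in growing cells and 9.39% of those higher in starved cells. For lower ORFs the number was 75, or 68.8% of the growing and 49.0% of the starved list. Without the autophagy and mating lists, 28 (14.1% of the growing list) were higher in both and 52 (61.9%) lower in both. The 52 still hold the deleted PHO23, the mating-type genes MATALPHA1 and HMLALPHA1, which had identical values, and ORFs beside or overlapping mating genes, such as LIF1, so they are not a set apart from mating. The starved median log2 fold was 0.27 for the ORFs higher in growing cells and -1.44 for those lower, against -0.03 for all. The lower set was thus largely lower in both conditions, and most of the higher set was under 2-fold in starved cells. Whether the conditions differ cannot be tested with 1 library per group.

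Higher in both were MND1, INO1, SAE3, GMC2, ARO9, ARO10 and AGP1, described above, and RNP1. RNP1 stood at 18.0 in growing deletion cells and 3.99 in growing wild type, and at 53.3 in starved deletion cells and 7.05 in starved wild type. YLL047W, at 19.8 in growing deletion cells and 4.98 in growing wild type, was alike (starved log2 fold 2.65), but it has no entry in the annotation used. By systematic name it lies beside RNP1, so it may not be a separate measurement. The same holds for YHR137C-A, also higher in both, which lies by name beside ARO9. HST2, a sirtuin, and DUN1 were also in this set, with starved log2 folds of 1.07 and 1.72. Of the 27 annotated ORFs higher in both, 11 (40.7%) had a URS1 core, against 10.4% of the 183 that were not higher in both.

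**Figure D4:**
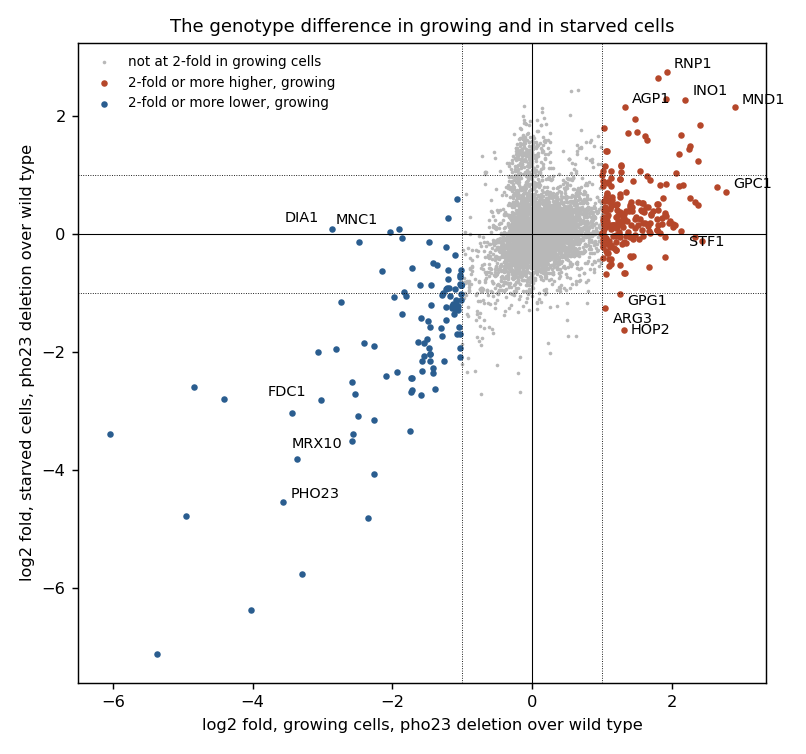
Log2 fold of the pho23 deletion over wild type in growing cells (x axis) and in starved cells (y axis) for the 5381 ORFs eligible in both, with dotted lines at 2-fold. Blue points, lower in growing cells, mostly lie below 0 in starved cells too, while red points, higher in growing cells, gather around a starved median of 0.27.

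Distance from the chromosome end went with the share of eligible ORFs that were lower. Within 10 kb of an end, 5 of 25 eligible ORFs were lower (20%) and none higher. From 10 to 20 kb 9 of 52 were lower (17.3%), from 20 to 40 kb 14 of 198 (7.07%), and beyond 100 kb 61 of 3958 (1.54%). Leaving out the mating and autophagy lists changed the lower counts of the first 3 ranges to 5, 9 and 12. The higher share lay between 3.88% and 9.62% in the other ranges. The 2 ranges nearest the ends hold few eligible ORFs, 25 of 121 and 52 of 125 annotated. Repeated families such as COS12 (-1.42) and COS10 (-1.09), which are of uncertain assignment, are among them. COS12, COS10, FDC1, DIA1 and PHO89 passed the RPKM filter through wild type alone. Such ORFs raise the lower share. With no filter the medians of these ranges were -0.11 and -0.30, against 0.06 beyond 100 kb. The 9 still count the mating-type gene HMLALPHA1, and DIA1 together with YMR316C-A, which overlaps it. On chromosome IV, FDC1 lay 18.3 kb from the end, PAD1 lay 20.3 kb and HSP31 29.8 kb from it. HSP31, a chaperone gene with close paralogues, stood at 10.9 in growing deletion cells and 31.5 in growing wild type.

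**Figure D5:**
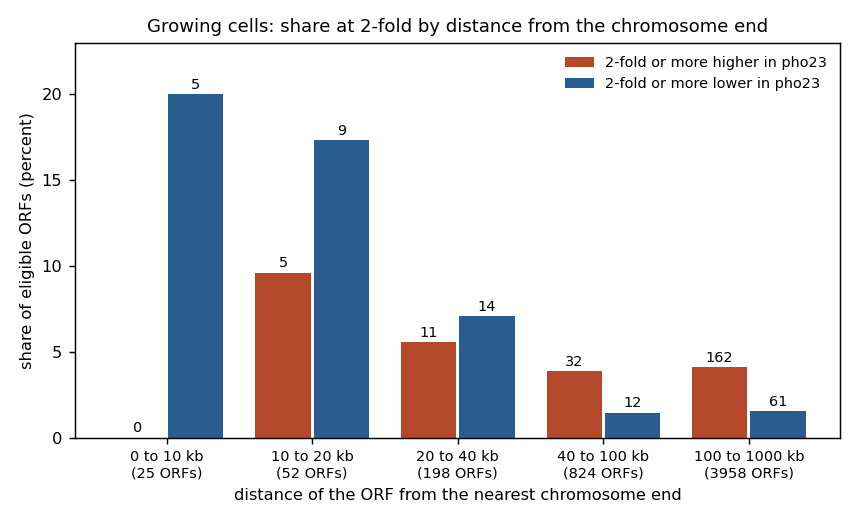
Share of eligible ORFs (percent, y axis) at 2-fold higher and lower in the growing pho23 deletion library, by distance of the ORF from the nearest chromosome end. Numbers over the bars count the ORFs. The lower share is 20% within 10 kb and 1.54% beyond 100 kb, and it counts ORFs that passed the RPKM filter through wild type alone.

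Called ORFs also lay beside each other. Of the 210 annotated higher ORFs, 38 (18.1%) had a higher ORF next to them, against 6.72% of all eligible ORFs, and of the 101 lower ones 20 (19.8%), against 2.99%. The pairs included STR3 and MND1, which lie in tandem 530 bp apart, and ZTA1 and FMP23, which diverge 321 bp apart. SDH6 and ARO10 diverge 700 bp apart, and SIP4, an activator of gluconeogenesis (1.91), lies 383 bp before ARG3. Runs of 3 were IRC24, HYR1 and GTT1, and ATG29, SET6 and MLH3. On the lower side PAD1, FDC1, IRC4 and YDR541C form a run. Some lower pairs overlap or converge on a mating gene, such as LIF1 (-1.59), which ends 206 bp from MF(ALPHA)2. Because the use of strand in counting is not given, such values may hold reads of the neighbour, and this was not tested.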

How the data were processed

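Total RNA of 4 libraries was sequenced, 1 for each of 4 groups. CASAVA 1.8.2, Bowtie2 2.1.0 and the sacCer3 genome are named in the submitters' processing notes. The authors deposited RPKM per ORF. No source used here states the counting tool, the annotation or whether strand was used. Symbols, positions and promoters came from RefSeq R64, which held 5997 of the 6678 ORFs, and the other 681 keep their deposited name. From the values as deposited, log2((RPKM + 1)/(RPKM + 1)) was computed for ORFs with an RPKM of at least 10 in either library, and counted at 2-fold. Read depth was estimated from the commonest small value of RPKM times length. It is rough: of the values worth under 100 reads, 37.0% to 43.1% came within 0.1 of whole reads. Ratio intervals are exact binomial (95%).

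The members and the 63 gene lists were chosen with earlier results of these data known, and 8 listed names had no match. List medians take all measured members. Named were Rpd3 complex genes, the 20 highest and 20 lowest ORFs outside the autophagy lists (all ATG genes counted in) and mating lists, list members at 2-fold or among the 6 largest folds of a list, and the 10 highest and 10 lowest in both conditions. Not all of these are printed, and a few others were added as contrasts after their values were seen. Results were recomputed with other pseudocounts (0.1 and 5), with the RPKM filter dropped or set to 30, with 4 scalings, and on annotated ORFs only. Some values are not reported here. The procedure was tested on simulated data. Python 3.11.15, pandas 2.3.3, scipy 1.17.1 and matplotlib 3.10.9 were used.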

Additional observations from a re-analysis of the deposited data

Results flagged for a closer look

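Some genes and lists had opposite folds in growing and starved cells, deletion over wild type. The differences were not tested, since each group has 1 library. HOP2 stood at 11.7 in growing deletion cells and 4.09 in growing wild type (log2 fold 1.31), and at 7.43 in starved deletion cells and 24.9 in starved wild type (-1.62). GPG1, a subunit associated with G protein signalling, stood at 21.2 in growing deletion cells and 8.31 in growing wild type (1.25), and at 152 in starved deletion cells and 306 in starved wild type (-1.01). ARG3 stood at 58.4 in growing deletion cells and 27.8 in growing wild type (1.05), and at 786 in starved deletion cells and 1875 in starved wild type (-1.25).

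Among lists with a median of at least 0.2 on each side of 0, arginine biosynthesis had medians of 0.23 in growing and -0.32 in starved cells, and the other Gcn4 targets 0.22 and -0.33. The TCA cycle was at 0.37 and -0.22, purine and one-carbon synthesis at 0.27 and -0.36, and the daughter-cell genes at 0.44 and -0.34.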

How the results depend on the processing

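The 215 higher and 113 lower ORFs were recounted under 9 alternatives. With a pseudocount of 5 there were 140 higher and 79 lower ORFs, and without a filter on low values 250 higher and 197 lower. With an RPKM of at least 30 there were 195 ORFs at 2-fold, 132 higher and 63 lower, and 89 of the ORFs covered by the naming rule were at 2-fold, against 147 as reported. This filter takes in fewer ORFs. Scaling by median of ratios gave 178 and 141, and by upper quartile 179 and 140. Scaling to equal sums gave 217 and 113. Median of ratios over all ORFs above 0, added after seeing the data, gave 184 and 135. No fold at 2-fold or more could change sign under these, so its sign was not put to a test. The scalings shift log2 folds by at most 0.07, and a pseudocount or a filter cannot reverse a fold. With a pseudocount of 5, 67 folds covered by that rule, counted at any RPKM, passed under 2-fold. No paired analysis was possible because each group has 1 library, and for the same reason no replicate could be left out. Without replicates no difference here is separated from variation between cultures.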
